A study of Mus musculus with 4 samples.

Results

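The S100, annexin and galectin genes described here are S100a4, S100a6, S100a10, S100a11, S100a13, Anxa1, Anxa2, Anxa5, Lgals1 and Lgals3, a set of 10 that is often read as a mark of effector and memory T cells. Members were read from every probe set that the platform annotation maps to exactly 1 gene. This gave 15 probe sets for 9 of the 10 genes, out of 18193 genes with such a probe set. S100a11 had none and is not described further. All 9 genes had at least 1 probe set that passed the filter on low values (an intensity of 32.5 in at least 1 array), as did 9625 genes in all, and 12 of the 15 probe sets passed. The other 3, 1 of Anxa1 and a pair of Anxa2, read close to background in every array.

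The samples were 4 populations of CD4+ T cells, each on 1 Affymetrix whole-genome mouse array. There were 2 populations with Foxp3, CD25hi Foxp3+ and CD25lo Foxp3+ cells, and 2 without, CD25+ Foxp3- and CD25- Foxp3- cells. All were sorted from 1 pool of spleen and lymph node cells from 25 male mice. All 4 populations came from Foxp3-GFP knock-in animals on a mixed B6/129 F2 background, aged 5 to 8 weeks, so that no population lacks the reporter allele. Foxp3 state was read from green fluorescent protein (GFP), and cells bearing CD8, B220, CD11b, NK1.1 or DX5 had been removed.

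No population had a replicate, so differences were judged by size and carry no test. A gene was counted as higher or lower at 2-fold or more. Beside each such count of members stands the share of all 9625 measured genes that passed the same rule. In such bulk samples a higher level in some cells cannot be told apart from more cells of a kind that expresses the gene. Array medians lay between 15.03 and 15.63. Foxp3 read 1308 (CD25hi) and 1117 (CD25lo) in Foxp3+ cells, against 16.8 (CD25+) and 17.6 (CD25-) in Foxp3- cells. Il2ra, which encodes CD25, read 1562 (CD25hi) and 288 (CD25lo) in Foxp3+ cells, against 283 (CD25+) and 22.3 (CD25-) in Foxp3- cells. Of 10 T cell identity markers 9 were measured, all 9 past the filter in every array and none 2-fold apart in any comparison.

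S100 proteins are small calcium sensors that change shape on binding calcium and then bind target proteins. Annexins bind acidic membrane lipids in the presence of calcium, and several form complexes with S100 proteins. Galectins are lectins that bind beta-galactoside sugars on glycoproteins, outside the cell as well as inside. In T cells, genes of all 3 families are known to be low in naive cells and higher after activation, and galectin-1 has been described as an effector molecule of regulatory T (Treg) cells.

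Across the 4 arrays the 9 genes showed 3 patterns. S100a4, S100a6, S100a10, Anxa2 and Lgals1 were highest in CD25lo Foxp3+ cells and next highest in CD25hi Foxp3+ cells. S100a13 was also highest in CD25lo Foxp3+ cells, but within a narrow range and with its lowest reading in CD25+ Foxp3- cells. Its CD25hi Foxp3+ and CD25- Foxp3- readings were nearly equal, 1.01-fold apart. Anxa1 and Lgals3 were highest in CD25+ Foxp3- cells, and Anxa5 was nearly level. In all, 6 of the 9 genes were highest in CD25lo Foxp3+ cells, where 21.5% of measured genes were highest, and 6 were lowest in CD25- Foxp3- cells, where 28.4% were lowest. The spans differed widely. From the lowest to the highest array it was 16-fold for S100a4, a span that 0.769% of measured genes reached, and 1.16-fold for Anxa5, a span that 96.0% reached.

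**Figure D1:**
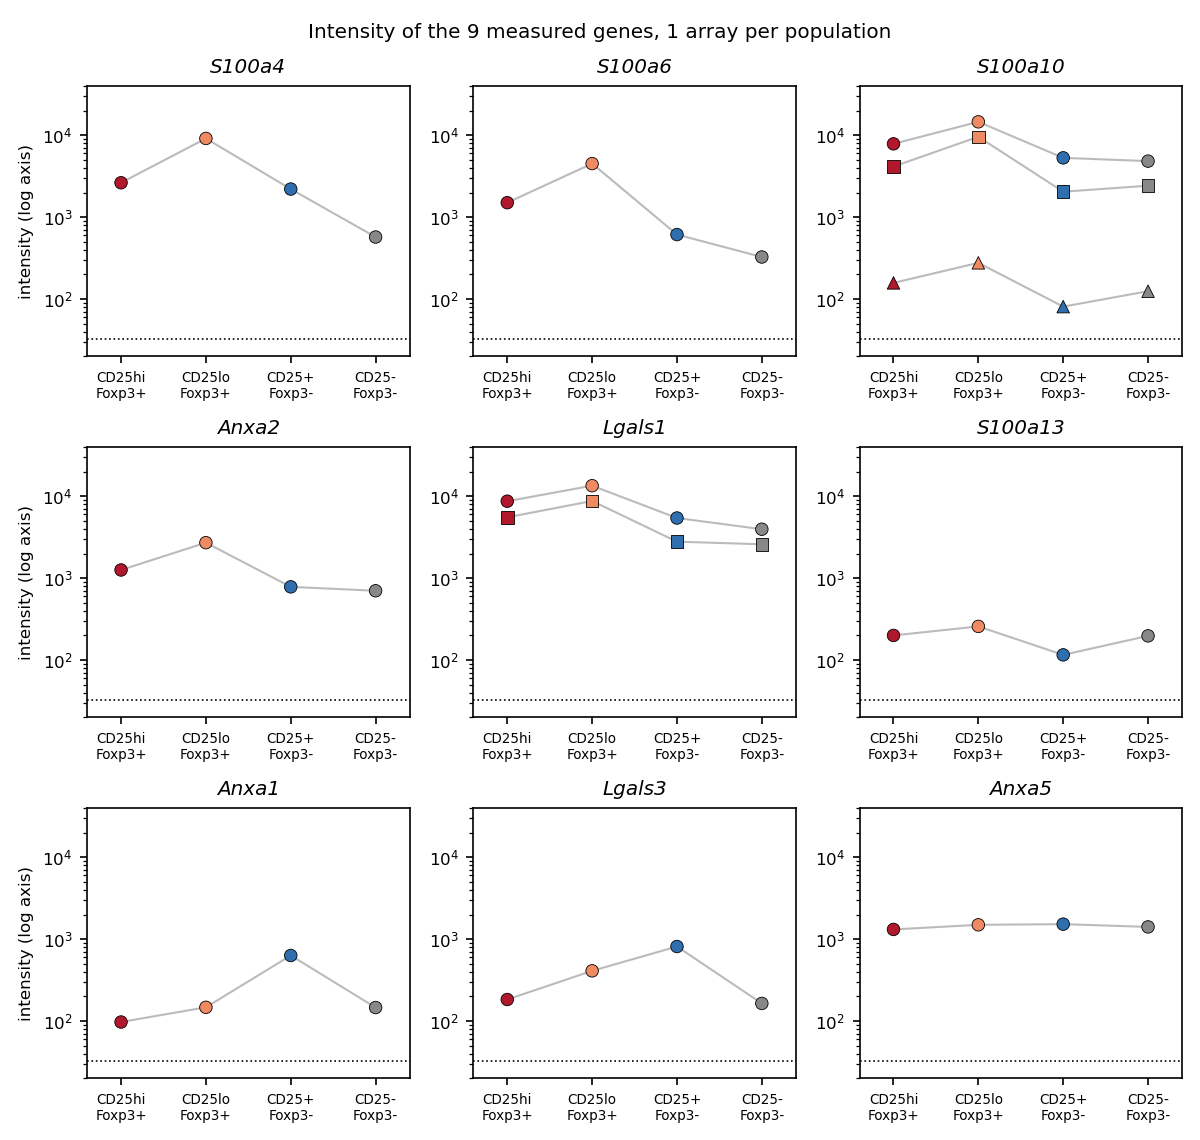
Intensity (log axis) of the 9 measured genes in the 4 populations, 1 array each, with 1 symbol shape per probe set that passed the filter and the filter intensity of 32.5 as a dotted line. S100a4, S100a6, S100a10, Anxa2 and Lgals1 are highest in CD25lo Foxp3+ cells, Anxa1 and Lgals3 in CD25+ Foxp3- cells, and Anxa5 lies between 1316 and 1526 in all 4.

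The promoters of 5 genes are printed because their genes fall on both sides of this division, S100a4, S100a6 and Anxa2 with the peak in CD25lo Foxp3+ cells and Anxa1 and Lgals3 with the peak in CD25+ Foxp3- cells. Each is the 250 bases before the annotated start, 5′ to 3′ along the gene's strand, taken from RefSeq on build GRCm38.p6, whose table held 7 of the 9 genes. Capitals mark matches, on either strand, to a TATA box (TATAAA), an AP-1 site (TGANTCA), a GC box (GGGCGG) or a STAT site (TTCNNNGAA). None of the matches overlap. The windows are chr3:90603520-90603769 (plus strand) for S100a4, chr3:90612644-90612893 (plus) for S100a6, chr9:69453433-69453682 (plus) for Anxa2, chr19:20390672-20390921 (minus) for Anxa1 and chr14:47373610-47373859 (plus) for Lgals3.
S100a4: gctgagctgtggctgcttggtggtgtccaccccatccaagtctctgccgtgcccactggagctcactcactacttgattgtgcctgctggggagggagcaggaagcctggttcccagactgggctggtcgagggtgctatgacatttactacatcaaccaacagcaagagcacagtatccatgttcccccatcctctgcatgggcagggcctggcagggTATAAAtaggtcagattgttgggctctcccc
S100a6: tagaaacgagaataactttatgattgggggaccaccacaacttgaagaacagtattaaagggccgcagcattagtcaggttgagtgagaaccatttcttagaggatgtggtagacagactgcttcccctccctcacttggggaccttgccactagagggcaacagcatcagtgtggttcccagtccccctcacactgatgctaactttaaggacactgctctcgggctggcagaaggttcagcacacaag
Anxa2: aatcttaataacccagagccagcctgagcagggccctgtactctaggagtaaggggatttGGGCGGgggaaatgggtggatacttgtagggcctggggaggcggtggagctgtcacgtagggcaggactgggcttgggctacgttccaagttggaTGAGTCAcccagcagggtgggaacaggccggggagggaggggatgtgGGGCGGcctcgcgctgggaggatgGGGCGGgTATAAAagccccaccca
Anxa1: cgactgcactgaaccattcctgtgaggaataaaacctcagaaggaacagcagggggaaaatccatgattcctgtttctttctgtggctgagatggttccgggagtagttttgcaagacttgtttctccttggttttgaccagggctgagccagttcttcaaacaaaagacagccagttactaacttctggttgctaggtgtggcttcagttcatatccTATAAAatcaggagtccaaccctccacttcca
Lgals3: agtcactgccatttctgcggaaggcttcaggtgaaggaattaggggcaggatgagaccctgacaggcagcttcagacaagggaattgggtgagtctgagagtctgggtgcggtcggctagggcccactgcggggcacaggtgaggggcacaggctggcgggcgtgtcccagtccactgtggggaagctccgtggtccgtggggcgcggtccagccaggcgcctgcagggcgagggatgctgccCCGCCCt
The TATA box letters stand 31 bases before the start in S100a4, 32 in Anxa1 and 17 in Anxa2, and in 12.4% of all 32851 promoter windows of this length. The AP-1 letters occur in Anxa2, 95 bases before the start, and in 6.75% of all windows. The GC box occurs in Anxa2 and Lgals3 and in 32.7% of all windows, and the STAT letters occur in none of the 7 genes and in 7.02% of all windows. Among genes with a promoter in the table, no motif was present in all genes of one pattern. These matches describe letters in these windows only.

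S100a4, which binds non-muscle myosin and is a known gene of effector and memory T cells, had the widest span of the set. It read 2634 (CD25hi) and 9154 (CD25lo) in Foxp3+ cells, against 2205 (CD25+) and 572 (CD25-) in Foxp3- cells. The CD25- Foxp3- array was far below the other 3, and CD25hi Foxp3+ and CD25+ Foxp3- cells lay only 1.2-fold apart. Against CD25- Foxp3- cells the fold was 4.60 in CD25hi Foxp3+, 16 in CD25lo Foxp3+ and 3.85 in CD25+ Foxp3- cells. The difference of CD25lo Foxp3+ cells was the 20th highest of all measured genes in that comparison.

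S100a6 (calcyclin), a neighbour of S100a4 on chromosome 3, read 1503 (CD25hi) and 4516 (CD25lo) in Foxp3+ cells, against 614 (CD25+) and 326 (CD25-) in Foxp3- cells. Both Foxp3+ arrays were above both Foxp3- arrays, with a gap of 2.45-fold between the nearest of them, the widest such gap in the set. Its folds against CD25- Foxp3- cells were 4.60 in CD25hi Foxp3+ cells, as for S100a4, and 13.8 in CD25lo Foxp3+ cells. In CD25+ Foxp3- cells the fold was 1.88, below the 3.85 of S100a4, so the 2 genes differed most in the cells with CD25 and without Foxp3. Against those cells, S100a6 was 7.36-fold higher in CD25lo Foxp3+ cells and 2.45-fold higher in CD25hi Foxp3+ cells.

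S100a10 (p11) is a member of the family that no longer binds calcium and forms a stable complex with annexin A2. Its probe set with the highest signal read 7866 (CD25hi) and 14607 (CD25lo) in Foxp3+ cells, against 5304 (CD25+) and 4838 (CD25-) in Foxp3- cells. The second read 4150 (CD25hi) and 9594 (CD25lo) in Foxp3+ cells, against 2046 (CD25+) and 2425 (CD25-) in Foxp3- cells. The third read 158 (CD25hi) and 277 (CD25lo) in Foxp3+ cells, against 80.9 (CD25+) and 125 (CD25-) in Foxp3- cells. All 3 probe sets put CD25lo Foxp3+ cells first and CD25hi Foxp3+ cells next, and they disagreed on which Foxp3- population was lower. The fold of CD25lo Foxp3+ over CD25- Foxp3- cells was 3.02, 3.96 and 2.22 by the 3 probe sets. The first of them is of a kind (suffix x) whose probes may also bind related transcripts.

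Anxa2, the annexin partner of S100a10, read 1260 (CD25hi) and 2714 (CD25lo) in Foxp3+ cells, against 784 (CD25+) and 702 (CD25-) in Foxp3- cells. The Foxp3- arrays were close together, and the gap to the Foxp3+ arrays was 1.61-fold. The fold over CD25- Foxp3- cells was 1.79 in CD25hi Foxp3+ and 3.87 in CD25lo Foxp3+ cells. As profiles centred on each gene's mean, S100a10 and Anxa2 lay a root mean square of 0.14 log2 units apart over the 4 arrays. Only 6 of the measured genes lay closer to Anxa2, and 14 lay closer to S100a10.

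Lgals1 (galectin-1), which can trigger death of activated T cells by binding their surface glycans, followed the same order. Its probe set with the highest signal read 8712 (CD25hi) and 13474 (CD25lo) in Foxp3+ cells, against 5431 (CD25+) and 3964 (CD25-) in Foxp3- cells. The second read 5537 (CD25hi) and 8763 (CD25lo) in Foxp3+ cells, against 2793 (CD25+) and 2594 (CD25-) in Foxp3- cells. Both probe sets placed both Foxp3+ arrays above both Foxp3- arrays, and the gap was 1.6-fold by the first and 1.98-fold by the second. The fold over CD25- Foxp3- cells was 2.20 in CD25hi Foxp3+ and 3.4 in CD25lo Foxp3+ cells.

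S100a13, which takes part in the release of proteins that lack a signal peptide, read 200.0 (CD25hi) and 258 (CD25lo) in Foxp3+ cells, against 116 (CD25+) and 198 (CD25-) in Foxp3- cells. Here the low array was CD25+ Foxp3- cells, and CD25hi Foxp3+ and CD25- Foxp3- cells differed by 1.01-fold. Its 2.23-fold difference between CD25lo Foxp3+ and CD25+ Foxp3- cells was the one that reached 2-fold.

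Anxa1 and Lgals3 had the other pattern. Anxa1 encodes annexin A1, a glucocorticoid-induced protein that restrains inflammation through formyl peptide receptors. It read 97.4 (CD25hi) and 147 (CD25lo) in Foxp3+ cells, against 632 (CD25+) and 146 (CD25-) in Foxp3- cells. The CD25+ Foxp3- array stood alone at 4.30-fold above the next, and CD25lo Foxp3+ and CD25- Foxp3- cells differed by 1.01-fold. CD25hi Foxp3+ cells were the lowest, 6.49-fold below CD25+ Foxp3- cells, and 0.842% of measured genes were at least as far below in that comparison. The other Anxa1 probe set read at most 10.2, so that it bears on none of this.

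Lgals3 (galectin-3), which can hold back clustering of T cell receptors by cross-linking their glycans, read 183 (CD25hi) and 411 (CD25lo) in Foxp3+ cells, against 814 (CD25+) and 164 (CD25-) in Foxp3- cells. CD25lo Foxp3+ and CD25+ Foxp3- cells were both above the other pair of populations, with a gap of 2.24-fold. Within CD25lo Foxp3+ cells Lgals3 was thus 2.50-fold above CD25- Foxp3- cells, with the 5 genes of the first pattern. In CD25hi Foxp3+ cells it was 1.12-fold above them, and it was 4.96-fold above them in CD25+ Foxp3- cells.

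Markers of other cell types moved across the same arrays, and their part in the values of the 9 genes was not tested. Of 14 myeloid markers 9 were measured, 2 of them past the filter in every array. Their summed intensity was 228 (CD25hi) and 532 (CD25lo) in Foxp3+ cells, against 842 (CD25+) and 934 (CD25-) in Foxp3- cells. Of the 9, 6 were highest in CD25- Foxp3- cells and 3 (Fcer1g, Tyrobp and Adgre1) in CD25+ Foxp3- cells, the array in which Anxa1 and Lgals3 were highest. Itgam, Cd14, Itgax, Elane and Csf3r stayed below the filter, at 16.3 or less. Fcer1g, a signalling chain of myeloid and innate lymphoid receptors, read 15.5 (CD25hi) and 21.9 (CD25lo) in Foxp3+ cells, against 294 (CD25+) and 21.5 (CD25-) in Foxp3- cells. Of 12 B cell markers 7 were measured, 3 of them past the filter in every array. Their sums were 386 (CD25hi) and 823 (CD25lo) in Foxp3+ cells, against 3033 (CD25+) and 1936 (CD25-) in Foxp3- cells. Most of the sum in CD25+ Foxp3- cells came from the MHC class II genes H2-Aa (1877) and H2-Eb1 (854). Ms4a1 and Ly86 were instead highest in CD25- Foxp3- cells, at 145 and 82.4, against 66.7 and 49.0 in CD25+ Foxp3- cells. Cd79a, Pax5, Ebf1 and Fcrla stayed below the filter, at 16.7 or less. Of 11 CD8 T and NK cell markers 9 were measured, with sums of 674 (CD25hi) and 666 (CD25lo) in Foxp3+ cells, against 2166 (CD25+) and 2433 (CD25-) in Foxp3- cells. Of 9 red cell and platelet markers 3 were measured, with sums of 58.2 (CD25hi) and 127 (CD25lo) in Foxp3+ cells, against 352 (CD25+) and 622 (CD25-) in Foxp3- cells. The highest array was CD25+ Foxp3- for 4 of the 7 B cell markers, CD25- Foxp3- for 2 and CD25lo Foxp3+ for 1, Cd79b. CD25- Foxp3- was the highest array for 5 of the 9 CD8 T and NK cell markers, CD25+ Foxp3- for the other 4. By comparison, the CD25+ Foxp3- array was the highest for 30.1% of all measured genes, the CD25- Foxp3- array for 30.7%.

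Anxa5, which binds phosphatidylserine and is used as a stain for dying cells, served as a contrast within the set. It read 1316 (CD25hi) and 1498 (CD25lo) in Foxp3+ cells, against 1526 (CD25+) and 1412 (CD25-) in Foxp3- cells. The widest step between populations next to each other in level was 1.074-fold.

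Against CD25- Foxp3- cells, CD25lo Foxp3+ cells had the most members past 2-fold. In that population 6 of 9 genes were higher, where 9.1% of measured genes were, and none was lower, where 6.88% were. The median log2 difference of the 9 was 1.59, beside -0.05 for all measured genes. In CD25hi Foxp3+ cells 3 of 9 were higher (S100a4, S100a6 and Lgals1; 7.09% of measured genes) and none lower (3.74%), with a median of 0.70 beside 0.02. CD25+ Foxp3- cells also had 3 of 9 higher (12.1%) and none lower (6.43%), with a median of 0.45 beside -0.01. The names differed in part, since these were S100a4, Anxa1 and Lgals3. All 3 comparisons share the CD25- Foxp3- array.

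Between the Foxp3+ populations, no gene was 2-fold higher in CD25hi than in CD25lo Foxp3+ cells (3.21% of measured genes were), and 4 of 9 were lower (2.51%). These were S100a4, 3.48-fold lower, S100a6, 3.0-fold lower, Lgals3, 2.24-fold lower, and Anxa2, 2.15-fold lower. The log2 differences ran from -1.80 for S100a4 to -0.19 for Anxa5, with a median of -0.89 beside 0.05 for all measured genes. The 5th percentile of all measured genes was -0.74, and Lgals1, Anxa1, S100a13 and Anxa5 did not reach it. By the second S100a10 probe set the log2 difference was -1.21, past 2-fold, and by the first it was -0.89.

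Against CD25+ Foxp3- cells, CD25lo Foxp3+ cells had 6 of 9 genes higher (5.17% of measured genes), the 4 S100 genes with Anxa2 and Lgals1, and Anxa1 lower (9.04%). The median log2 difference was 1.31 beside -0.01. CD25hi Foxp3+ cells had S100a6 alone higher (4.82%) and Anxa1 and Lgals3 lower (6.84%), with a median of 0.57 beside 0.03. Taking both Foxp3+ arrays against both Foxp3- arrays, with a gap of at least 1.5-fold between the pairs, S100a6, Anxa2 and Lgals1 were higher (2.79% of measured genes) and none was lower (1.93%). The gap of S100a10 was 1.48-fold by its first probe set, below that rule, 1.71-fold by the second, past it, and 1.26-fold by the third. Both CD25hi Foxp3+ and CD25+ Foxp3- cells against the other pair separated no gene upward (1.1%) or downward (0.187%). The remaining pairing, CD25lo Foxp3+ and CD25+ Foxp3- cells against CD25hi Foxp3+ and CD25- Foxp3- cells, put Lgals3 higher (1.6%) and none lower (1.45%).

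**Figure D2:**
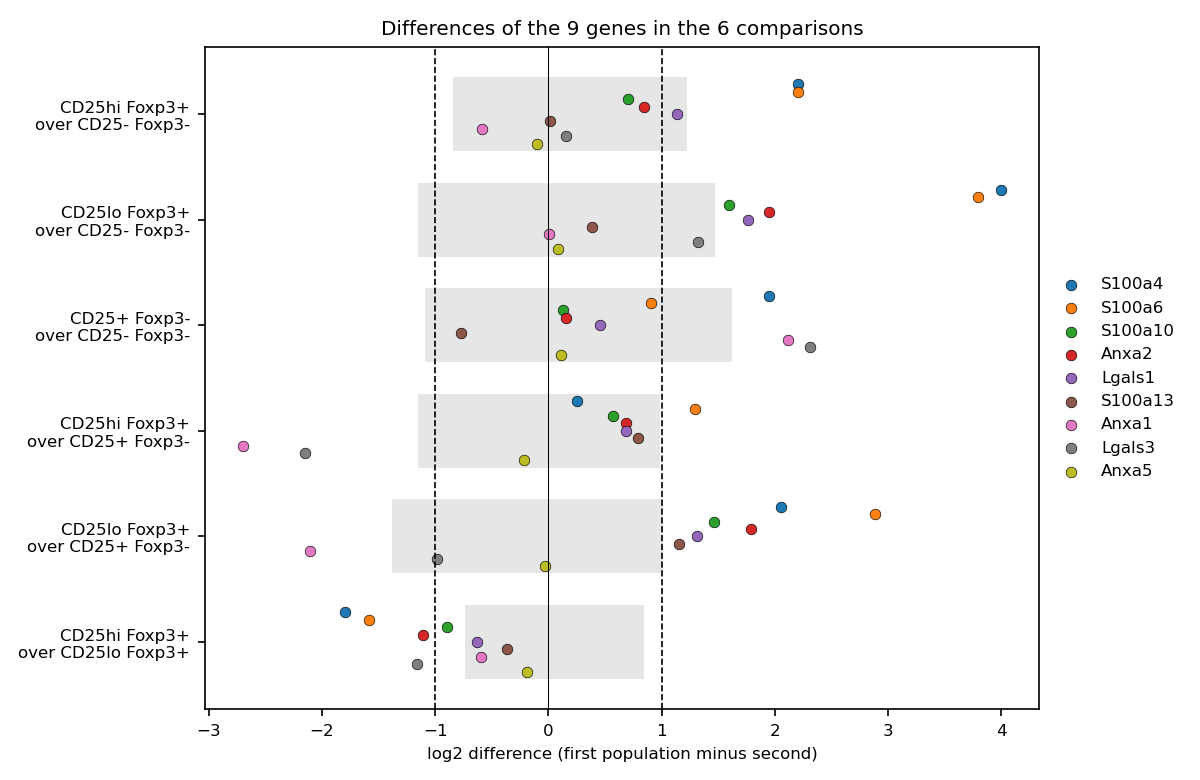
Log2 difference of each of the 9 genes (points) in the 6 comparisons of 2 arrays, first population minus second, with grey bars from the 5th to the 95th percentile of all 9625 measured genes and dashed lines at 2-fold. S100a4 and S100a6 lie beyond the bar in both comparisons of Foxp3+ with CD25- Foxp3- cells, and Anxa1 and Lgals3 lie beyond it, to the left, in CD25hi Foxp3+ against CD25+ Foxp3- cells.

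Most other S100 genes had no signal past the filter. RefSeq lists 15 coding S100 genes on chromosome 3, in an order in which S100a13 stands near one end, S100a4, S100a5 and S100a6 stand side by side, and S100a8 and S100a9 follow. After S100a7l2, 54 other coding genes come before S100a11 and S100a10. Of these 15 genes 12 had a probe set of 1 gene and 6 were measured. S100a5, between S100a4 and S100a6, read 5.68 at most. S100a8 and S100a9, which encode the calprotectin of neutrophils and monocytes, were highest in CD25- Foxp3- cells, where S100a4 and S100a6 were lowest. S100a9 read 46.1 (CD25hi) and 34.3 (CD25lo) in Foxp3+ cells, against 82.7 (CD25+) and 144 (CD25-) in Foxp3- cells, and S100a8 read 18.5 (CD25hi) and 21.9 (CD25lo) in Foxp3+ cells, against 29.5 (CD25+) and 62.7 (CD25-) in Foxp3- cells. S100a8 thus passed the filter of 32.5 in CD25- Foxp3- cells alone. Both genes belong to the myeloid markers above.

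**Figure D3:**
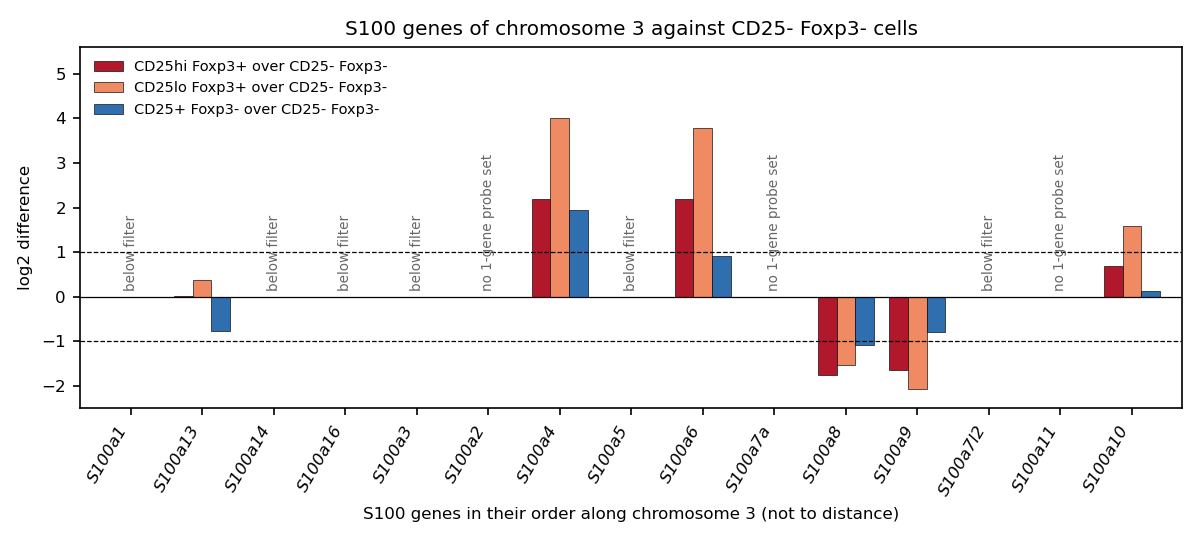
Log2 difference from CD25- Foxp3- cells of the S100 genes of chromosome 3, in gene order and not to distance, for the 3 other populations (1 array each), with dashed lines at 2-fold. S100a4 and S100a6 lie above 0 in all 3, S100a8 and S100a9 lie below 0 in all 3, and genes without a bar were below the filter or had no probe set of 1 gene. S100a8 passed the filter in CD25- Foxp3- cells alone.

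Among the other annexins and galectins, Anxa4, Lgals4 and Lgals8 passed 2-fold in at least 1 comparison. Of 9 further annexin genes 3 were measured, and Anxa4 was the one past 2-fold, at 154 (CD25hi) and 190 (CD25lo) in Foxp3+ cells, against 76.7 (CD25+) and 43.6 (CD25-) in Foxp3- cells. Anxa6 read 4326 (CD25hi) and 5029 (CD25lo) in Foxp3+ cells, against 3371 (CD25+) and 3561 (CD25-) in Foxp3- cells, and Anxa7 read 1044 (CD25hi) and 1213 (CD25lo) in Foxp3+ cells, against 911 (CD25+) and 746 (CD25-) in Foxp3- cells. Of 8 further galectin genes 4 were measured. Lgals9 (galectin-9) read 1245 (CD25hi) and 1357 (CD25lo) in Foxp3+ cells, against 869 (CD25+) and 1201 (CD25-) in Foxp3- cells, and Lgals8 read 1316 (CD25hi) and 1428 (CD25lo) in Foxp3+ cells, against 677 (CD25+) and 1275 (CD25-) in Foxp3- cells, lowest in CD25+ Foxp3- cells for both. Lgals4 read 85.9 (CD25hi) and 50.5 (CD25lo) in Foxp3+ cells, against 42.7 (CD25+) and 97.9 (CD25-) in Foxp3- cells, and Lgalsl read 141 (CD25hi) and 247 (CD25lo) in Foxp3+ cells, against 169 (CD25+) and 182 (CD25-) in Foxp3- cells.

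Of 11 genes of known binding partners, receptors and glycan ligands 9 were measured. Ahnak, a giant scaffold protein that binds the complex of S100A10 and annexin A2, had one of the profiles nearest S100a4. It read 1611 (CD25hi) and 3800.3 (CD25lo) in Foxp3+ cells, against 1420.5 (CD25+) and 374 (CD25-) in Foxp3- cells, which is 10.2-fold in CD25lo Foxp3+ over CD25- Foxp3- cells. Its folds over CD25- Foxp3- cells were larger than those of the complex genes in every other population. In CD25hi Foxp3+ cells the fold was 4.31 for Ahnak, against 1.63 for S100a10 (first probe set) and 1.79 for Anxa2. In CD25lo Foxp3+ cells the 10.2-fold of Ahnak stood against 3.02 for S100a10 and 3.87 for Anxa2. In CD25+ Foxp3- cells Ahnak was 3.80-fold above CD25- Foxp3- cells, against 1.10-fold for S100a10 and 1.12-fold for Anxa2. Cacybp, which encodes the protein named for binding calcyclin (S100A6), ran another way and was highest in CD25+ Foxp3- cells, 2.38-fold above CD25- Foxp3- cells. None of the other 7, which include Myh9, the myosin bound by S100A4, and Ager, a receptor for several S100 proteins, passed 2-fold in any comparison.

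Over the 4 arrays, the named genes with profiles nearest S100a4 were Ccr2, a chemokine receptor of memory T cells and monocytes, Ahnak, and the actin gene Actg2. Their root mean square differences from it were 0.17, 0.27 and 0.30 log2 units. S100a6 lay at 0.43 from S100a4, with 22 measured genes closer. Nearest Anxa2 were Slc37a2, Zan and B3gnt5, at 0.06, 0.08 and 0.08, of which Slc37a2 and Zan read little above the filter at their highest, 66.3 and 60.1. Nearest Lgals1 were Inpp4b, Coq8a and Arel1, at 0.04, 0.06 and 0.06. With 4 arrays such nearness is a description only.

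**Figure D4:**
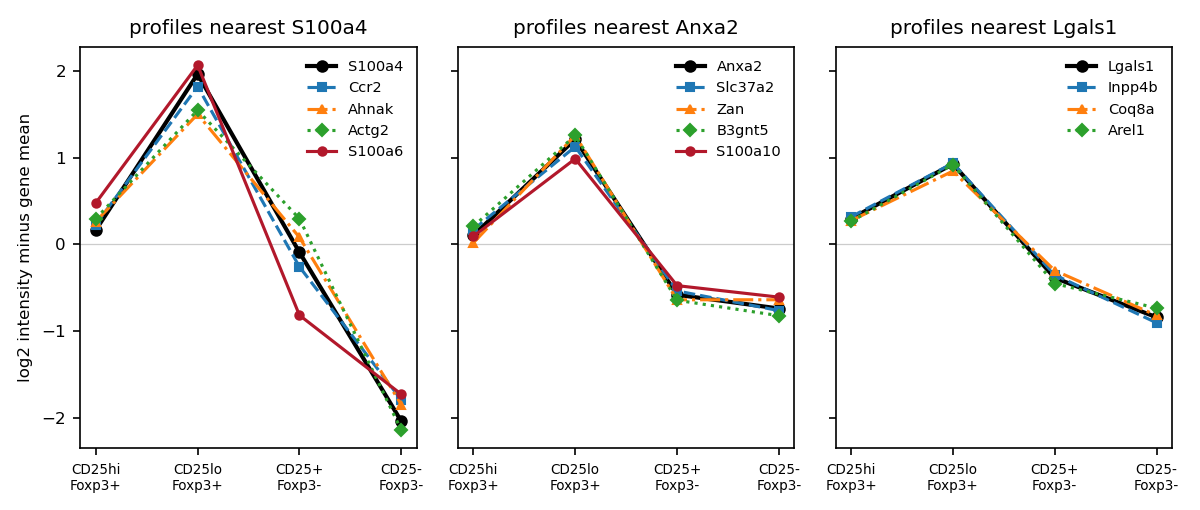
Log2 intensity minus the gene's own mean over the 4 arrays for S100a4, Anxa2 and Lgals1 (black), for the 3 named genes with the nearest profile to each, and in red for S100a6 and S100a10. S100a6 departs from S100a4 mainly in CD25+ Foxp3- cells, and S100a10 lies 0.14 log2 units from Anxa2.

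Genes of memory and naive T cells are given for comparison. Of 22 measured effector and memory genes, 11 were at least 2-fold higher in CD25lo Foxp3+ than in CD25- Foxp3- cells (9.1% of measured genes) and 2 were lower (6.88%), with a median log2 difference of 1.18 beside -0.05 for all measured genes. In CD25hi Foxp3+ cells 9 were higher (7.09%) and 6 lower (3.74%), with a median of 0.65 beside 0.02. In CD25+ Foxp3- cells 12 were higher (12.1%) and 1 lower (6.43%), with a median of 1.14 beside -0.01. The lower genes were Fasl and Nkg7 in both Foxp3+ populations, Ccl5, Cxcr6, Id2 and Ifng in CD25hi Foxp3+ cells only, and Crip1 in CD25+ Foxp3- cells. Capg and Ccr2 were among the genes higher in all 3 populations. Capg, an actin-capping protein, read 3492 (CD25hi) and 3598 (CD25lo) in Foxp3+ cells, against 1407 (CD25+) and 279 (CD25-) in Foxp3- cells. Ccr2 read 505 (CD25hi) and 1519 (CD25lo) in Foxp3+ cells, against 360.2 (CD25+) and 124 (CD25-) in Foxp3- cells. Of 12 measured naive T cell genes, 9 were lower and 1 higher in CD25lo Foxp3+ relative to CD25- Foxp3- cells (median -1.66). The same comparison gave 5 lower and 1 higher in CD25hi Foxp3+ cells (median -0.81), and 7 lower and 1 higher in CD25+ Foxp3- cells (median -1.22), beside the same shares and medians of all measured genes. Among 14 measured cell cycle genes, 10 passed 2-fold upward in CD25hi Foxp3+, 6 in CD25lo Foxp3+ and 12 in CD25+ Foxp3- cells, relative to CD25- Foxp3- cells, again beside 7.09%, 9.1% and 12.1% of measured genes. The highest array was CD25+ Foxp3- for 10 of these 14 and CD25lo Foxp3+ for the other 4 (Mki67, Top2a, Ccna2 and Birc5).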

How the data were processed

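The authors deposited 1 intensity per probe set and array on a linear scale. Per the labels' protocols, RNA was amplified repeatedly in vitro before hybridisation. The sources used here do not give the summary and normalization of probes. Groups came from the sample titles, with 1 array each. The 4 columns were kept on the deposited scale, since their medians lay within 10% of each other, and converted to log2. After 64 controls were left out, 34945 probe sets had 1 gene, 932 several and 9160 none listed. Values under the 40th percentile (10.1) were set to it, and probe sets with no value at or above the 60th percentile (32.5) were dropped. A gene was read from its kept probe set with the highest mean. Promoters and gene order came from RefSeq GRCm38.p6 tables.

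The members and lists were chosen with earlier results of these data known, and support nothing by themselves. Named were all members, the sort genes Foxp3 and Il2ra, all measured relatives, up to 4 genes of other lists past 2-fold, and the 3 genes nearest S100a4, Anxa2 and Lgals1 that have more than a clone or locus symbol. Partners named without a 2-fold difference, Fcer1g, H2-Aa, H2-Eb1, Ms4a1 and Ly86 were chosen after their values were seen. The same holds for the myeloid and B cell markers named below the filter and the effector and memory genes named as lower. Work was done in Python 3.11.15 with pandas 2.3.3. The 12 alternatives are in the closing section.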

Additional observations from a re-analysis of the deposited data

Results flagged for a closer look

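Lgals3 differed in opposite directions in 2 comparisons of a Foxp3+ with a Foxp3- population. Its log2 difference was -2.15 in CD25hi Foxp3+ against CD25+ Foxp3- cells and 1.32 in CD25lo Foxp3+ against CD25- Foxp3- cells. Neither comparison holds CD25 level: Il2ra read 1562 in CD25hi Foxp3+ against 283 in CD25+ Foxp3- cells, and 288 in CD25lo Foxp3+ against 22.3 in CD25- Foxp3- cells. Between CD25lo Foxp3+ and CD25+ Foxp3- cells, whose Il2ra was close (288 and 283), the log2 difference of Lgals3 was -0.99. Each value rests on 1 array against 1, so the difference between them was not tested. Of the 9625 measured genes, 143 (1.49%) were likewise 2-fold or more apart in opposite directions.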

How the results depend on the processing

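Of 180 counts of members recomputed under the alternatives, 168 stayed within 1.5 times the reported count and 12 did not. Many of the 432 log2 differences of single genes could not change. The other floors and filters left them as they were, since no reading used was below 97.4. Other choices of probe set could alter only S100a10 and Lgals1, the members with more than 1 measured probe set. Of the 432, none that had passed 2-fold lost it or changed sign, and 4 newly passed it, all of S100a10. Another 5 changed sign, each from a reported size of 0.13 or less: S100a10 in CD25+ Foxp3- over CD25- Foxp3- cells with the median and the second probe set, S100a13 in CD25hi Foxp3+ over CD25- Foxp3- cells with both scalings, and Anxa5 in CD25lo Foxp3+ over CD25+ Foxp3- cells with the 75th percentile. The log2 difference of S100a10 was 1.02 in CD25hi Foxp3+ over CD25+ Foxp3- cells and -1.21 in CD25hi over CD25lo Foxp3+ cells. Both values held with the median of the probe sets and with the second highest. The count of genes higher in CD25hi Foxp3+ over CD25+ Foxp3- cells, 1 as reported, was then 2. The other alternatives that moved a count changed the size rule itself, and so how many genes can pass. The shares of all measured genes under the changed rules are not given here. The counts that follow thus have no background beside them and describe only how the reported counts move. At 1.5-fold, CD25hi Foxp3+ over CD25- Foxp3- cells had 5 genes higher and 1 lower, CD25+ Foxp3- over CD25- Foxp3- cells had 1 lower, and CD25hi Foxp3+ over CD25+ Foxp3- cells had 4 higher. At the same fold CD25lo Foxp3+ over CD25+ Foxp3- cells had 2 lower and CD25hi over CD25lo Foxp3+ cells had 7 lower. At 3-fold, CD25hi Foxp3+ over CD25+ Foxp3- cells had 0 higher, CD25lo Foxp3+ over CD25+ Foxp3- cells had 3 higher and CD25hi over CD25lo Foxp3+ cells had 2 lower. Both Foxp3+ arrays were above both Foxp3- arrays by the 1.5-fold gap for 4 genes, S100a10 added, with the median of the probe sets, the second probe set and quantile normalization. With a 2-fold gap, 1 gene (S100a6) was higher in both Foxp3+ arrays. Quantile normalization and scaling to the 75th percentile moved no count past 1.5 times, and the other floors and filters could move none. Of 48 medians 1 moved by more than probe sets of 1 gene differ, to 1.65 in CD25lo Foxp3+ over CD25+ Foxp3- cells by the second probe sets. No paired analysis was possible because each population has 1 array, and none could be left out. The number of arrays limits the precision.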
